A study of Mus musculus with 12 samples.

Results

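The comparison set livers of wild-type mice on a ketogenic diet against livers of wild-type mice on chow, with the heavy and light polysome pools of each liver added together. It used 10 of the 12 libraries of the series, 2 pools from each of 5 animals, and its unit was the animal (chow n = 3, keto n = 2). All animals were male C57BL/6 mice with wild-type eIF4E. The chow animals ate standard chow with free access to food, and the keto animals ate the ketogenic diet for 24 h, per the treatment protocol, while the time field of the labels gives 0 h. Chow 1 and 2 are titled chow, and chow 3 is titled fed, like the S209A animal, with the same treatment label as the other chow animals. Their age is not given in the labels. A chow-fed animal with the eIF4E S209A change on both alleles was not used. RNA was taken from sucrose gradients of liver, and the labels do not say which fraction range gave the heavy and which the light pool. Each library was scaled to the same total of nuclear protein-coding counts before the pools of an animal were added, so both pools weigh the same in the sum. The sum therefore describes mRNA in the pooled gradient fractions, and it is not the level in the whole tissue. Of 20970 nuclear protein-coding genes in the tables, 13836 had a count in these libraries, and the 8151 with at least 20 raw counts over both pools in at least 2 animals were tested.

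A ketogenic diet is rich in fat and poor in carbohydrate. With little dietary carbohydrate the liver takes up more fatty acid, oxidizes it in mitochondria and peroxisomes and exports part of it as ketone bodies, and these genes are classic targets of the nuclear receptor PPARα. Feeding carbohydrate acts in the other direction through insulin, SREBP and ChREBP, which drive the genes of fatty acid synthesis. The liver also makes most plasma proteins, through the endoplasmic reticulum, and the hormone hepcidin, which limits the entry of iron into plasma.

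The 2 pools together held 906774 nuclear protein-coding counts in keto 2, 1208336 in chow 1, 1377447 in keto 1, 2010794 in chow 2 and 3393248 in chow 3. Scale factors ran from 0.501 to 2.49, so keto 2 rests on the fewest counts. The liver marker Alb, which encodes albumin, was high in every animal, at 14444, 23236 and 12028 CPM in chow 1, 2 and 3 and at 11599 and 15362 in keto 1 and 2. CPM is the usual depth-normalized count, here relative to the TMM-scaled sum over the 8151 tested genes. The file headers name Bowtie2 alignments for chow 1 and 2, HISAT2 alignments for chow 3, and a read file with no aligner for both keto animals, so diet and processing cannot be told apart. Counts on pseudogenes were 0.316% to 0.323% of the protein-coding counts in the libraries of chow 3 and 1.28% to 2.76% in the other 8. Mitochondrial rRNA took 47.3% and 74.2% of all counts in the keto heavy libraries and 12.9% to 16.7% in the chow heavy libraries, and nuclear protein-coding genes 5.60% and 6.01% against 15.9% to 29.7%. In the light libraries mitochondrial rRNA took 37.6% and 51.8% on keto and 13.5% to 58.2% on chow. Lars2, a mitochondrial leucyl-tRNA synthetase gene, was the most counted nuclear protein-coding gene. It held 2.12% to 12.4% of the nuclear protein-coding counts of a library, and leaving it out gave 0 calls as well. Log2 CPM over genes correlated at r = 0.755 to 0.858 between any 2 animals, and at 0.839 between the keto animals, as a description over 8151 genes.

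No gene passed the test. edgeR's quasi-likelihood test with Benjamini-Hochberg adjustment called 0 of 8151 genes between keto and chow (0% called), with a smallest adjusted p of 0.347. At an unadjusted p under 0.05 it counted 934 genes (11.5%), of which 431 were higher (5.29%) and 503 lower (6.17%) in keto. DESeq2 called 40 genes, 19 higher and 21 lower, while limma-trend and limma-voom called 0. Without the TMM step the split at an unadjusted p under 0.05 was 612 higher and 328 lower, and that scaling moved the median log2 of all genes by 0.13 from -0.04. Both keto animals lay above all 3 chow animals in 1290 genes (15.8%) and below all of them in 1315 (16.1%). These shares are the background for every count of non-overlapping genes given here, and a gene whose groups do not overlap has not thereby passed a test. For a single gene, an exact permutation test of 2 against 3 animals has 10 arrangements and cannot go below a one-sided p of 0.1. The labels do not state separate cultures or cohorts, so the error reflects the spread between these animals. In what follows a log2 value is the difference keto over chow with its standard error, and in every case the edgeR adjusted p was 0.347 or more.

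Among the abundant genes with non-overlapping groups, the lower side was led by genes of iron control, splicing, ribosomes and the urea cycle. Hamp encodes hepcidin (Entrez Gene 84506, chromosome 7, 30942368 to 30944029 in GRCm38.p6). Its level was 2123, 848 and 2376 CPM in chow 1, 2 and 3 and 307 and 189 CPM in keto 1 and 2. Both keto livers lay well under the lowest chow liver, with a log2 difference of -2.85 ± 0.56 (edgeR adjusted p = 0.347), of -3.88 in the heavy pool alone and -2.03 in the light pool alone. Hamp transcription is known to answer to bone morphogenetic protein (BMP) signals from iron and to STAT3 signals from inflammation, so the bases before its start are shown here. The run covers 250 bases upstream of the RefSeq start on the minus strand, chr7:30944030-30944279, and capitals mark GGCGCC, a core of BMP-responsive elements, 109 bases before the start, and TTCNNNGAA, a STAT pattern, 97 bases before it.
Hamp: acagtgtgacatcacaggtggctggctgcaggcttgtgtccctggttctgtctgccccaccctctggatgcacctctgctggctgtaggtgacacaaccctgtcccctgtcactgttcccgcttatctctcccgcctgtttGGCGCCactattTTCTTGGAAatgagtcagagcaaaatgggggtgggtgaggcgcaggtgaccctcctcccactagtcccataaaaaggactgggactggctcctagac
Of the 32851 RefSeq promoter windows of this length, 9.59% held GGCGCC and 7.02% held TTCNNNGAA. Among the 8484 windows of the tested genes these shares were 17.1% and 5.69%. Both patterns read the same on either strand, and they do not overlap in Hamp. A match describes the letters only.

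Ik, a component of the spliceosome, stood at 166, 210.4 and 232 CPM on chow and 39.6 and 48.9 on keto, a log2 difference of -2.19 ± 0.37. Hnrnph2, an hnRNP protein that binds G-rich RNA, stood at 142, 126 and 66.3 against 19.2 and 13.6 CPM (-2.76 ± 0.48), and Luc7l3, a U1 snRNP-associated protein, at 399.6, 198 and 388 against 84.9 and 105 CPM (-1.79 ± 0.41). In each of these splicing genes the highest keto liver lay below the lowest chow liver by a clear margin. Bcap31, an endoplasmic reticulum membrane protein that escorts new membrane proteins, stood at 78.3, 75.3 and 115 against 16.9 and 6.97 CPM (-2.90 ± 0.52). Rpl7, a protein of the large ribosomal subunit, stood at 35.3, 43.8 and 141 against 8.55 and 3.96 CPM (-3.54 ± 0.76), with chow 3 far above the other chow livers. Gtpbp4, a GTPase of large-subunit assembly, stood at 59.9, 76.5 and 83 against 20.7 and 13.4 CPM (-2.10 ± 0.45). Ssb, the La protein that binds new RNA polymerase III transcripts, had a log2 difference of -1.76 ± 0.42.

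The lower side also held metabolic genes. Otc, the mitochondrial urea cycle enzyme ornithine transcarbamylase, was among the most even within groups, at 317, 277 and 238 CPM on chow and 94.1 and 94 on keto (-1.56 ± 0.34). Slc3a2, the heavy chain shared by several amino acid transporters, stood at 139.6, 106 and 62.2 against 28.9 and 27.4 CPM (-1.86 ± 0.45). Aldh1a7, an aldehyde dehydrogenase, stood at 203, 177 and 195 against 59.4 and 82.4 CPM (-1.43 ± 0.35), and Apom, an apolipoprotein of HDL, at 126, 128 and 222 against 59 and 47.6 CPM (-1.57 ± 0.40). The remaining 3 leading genes on this side were Neb, which encodes the sarcomere protein nebulin (-2.38 ± 0.56), Mapk8ip3, a kinase scaffold (-1.54 ± 0.39), and Chd6, a chromatin remodeler (-1.44 ± 0.36).

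The higher side was led by a more mixed set. Dhdh, a dimeric dihydrodiol dehydrogenase (chromosome 7, 45472956 to 45488888), stood at 511, 439.8 and 175 CPM on chow and 1999 and 2087 on keto, a log2 difference of 2.44 ± 0.48. The keto livers lay close together and far above the chow livers. Slc35e2 and Slc35e1, members of a nucleotide-sugar transporter family, stood at 30.6, 51.2 and 36.6 against 172 and 149.8 CPM (2.02 ± 0.36) and at 23.2, 22.1 and 22.2 against 71.8 and 83.3 CPM (1.78 ± 0.40). Nab1, a corepressor of EGR transcription factors, was the most even of all within groups, at 55.3, 59.7 and 53.3 against 168 and 169 CPM (1.59 ± 0.32).

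Several of the higher genes act in growth control, oxygen sensing or lipid metabolism. Hif1an, the asparagine hydroxylase that restrains hypoxia-inducible factor, stood at 16, 25.4 and 15.1 against 77.7 and 90.2 CPM (2.16 ± 0.43). Fgf1, a fibroblast growth factor, stood at 36.8, 95.6 and 43.6 against 276 and 211 CPM (2.06 ± 0.43). Elovl6, which elongates palmitate to stearate, stood at 16.2, 33 and 40.1 against 217 and 79 CPM (2.31 ± 0.51), with the keto livers far apart from each other. Trp53inp2, a cofactor of autophagy, stood at 78.5, 94.3 and 75.3 against 216 and 256 CPM (1.51 ± 0.32), and Abce1, which recycles ribosomes after termination, at 15.9, 13.7 and 28.7 against 76.3 and 86.7 CPM (2.06 ± 0.45). Mocs1, of molybdenum cofactor synthesis, had a log2 difference of 1.58 ± 0.36 and Ccni, cyclin I, of 1.56 ± 0.36. Igsf11, Lin7a, Synj2bp and Sdc3 lay at 1.51 to 2.36. The 30 leading genes were chosen for non-overlap in the sum and for the smallest p, so their separation is a description. All 30 had the same sign in the heavy and the light pool alone, which their choice on the sum of these pools favours.

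**Figure D1:**
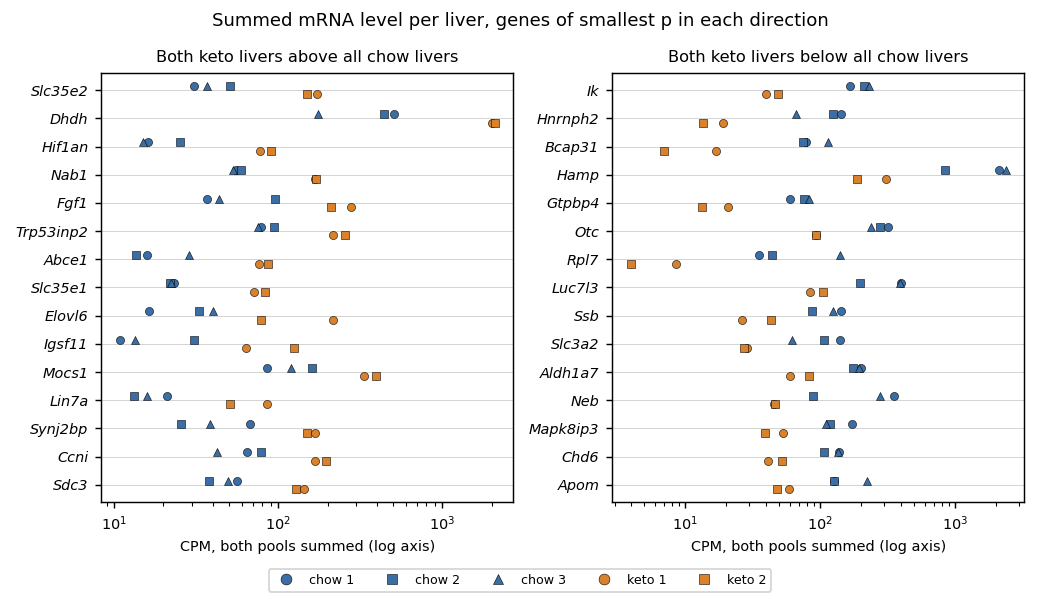
Summed level per liver in CPM (log axis) of the 15 genes of smallest p on each side among abundant genes with non-overlapping groups. Blue marks are chow livers, orange marks keto livers, and shapes give the animal number; Hamp runs from 189 to 2376 CPM and Dhdh from 175 to 2087 CPM.

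Gene lists gave a broader view. Of the 44 lists with a tested member, 37 had a negative median log2 and 7 a positive one, while 47.5% of all genes were positive and their median was -0.04. The lists differ in the share of members whose groups did not overlap, and these shares are read against 16.1% below and 15.8% above. The members are counted as a description, and the lists carry no test.

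**Figure D2:**
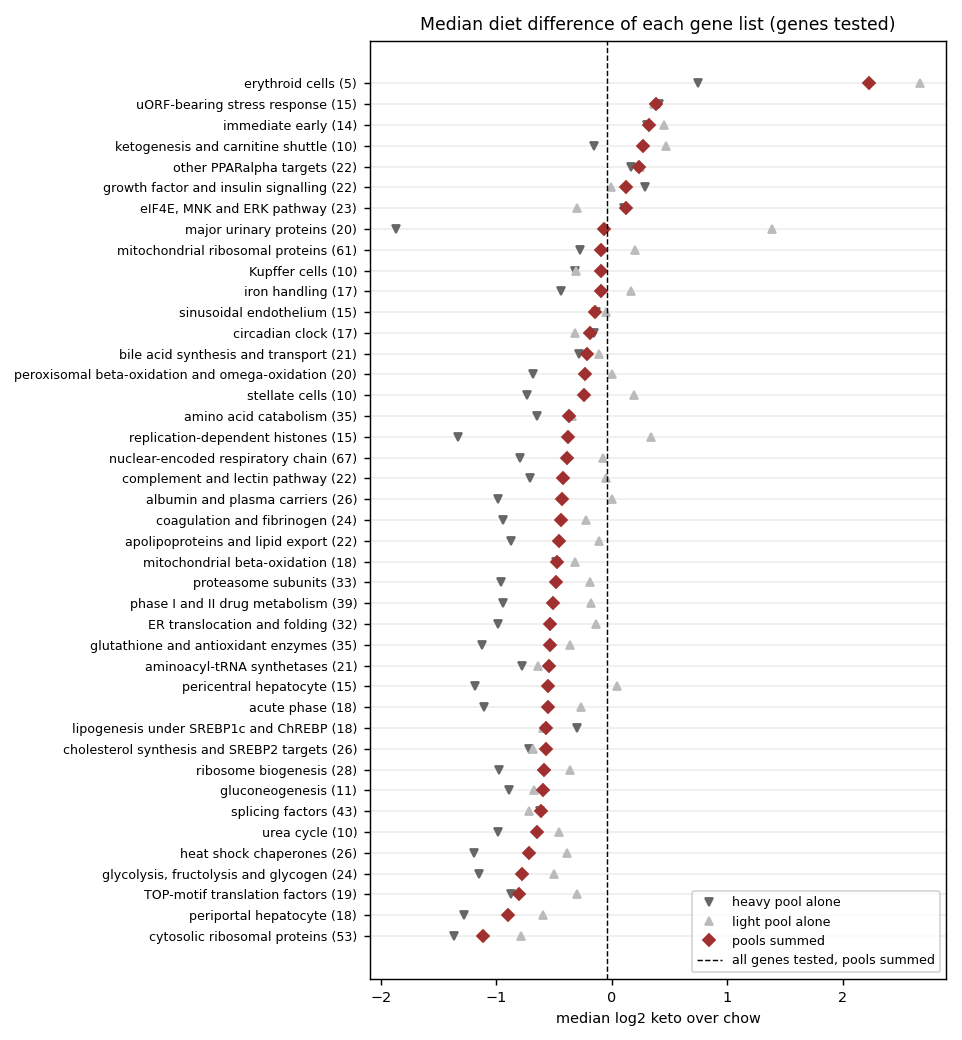
Median log2 keto over chow of each gene list with at least 5 tested members, for the pools summed (red diamonds), the heavy pool alone (dark triangles) and the light pool alone (light triangles); the dashed line is the median of all genes, -0.04. Most diamonds lie left of the line, with cytosolic ribosomal proteins at -1.12 and erythroid genes at 2.23 at the ends.

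**Figure D3:**
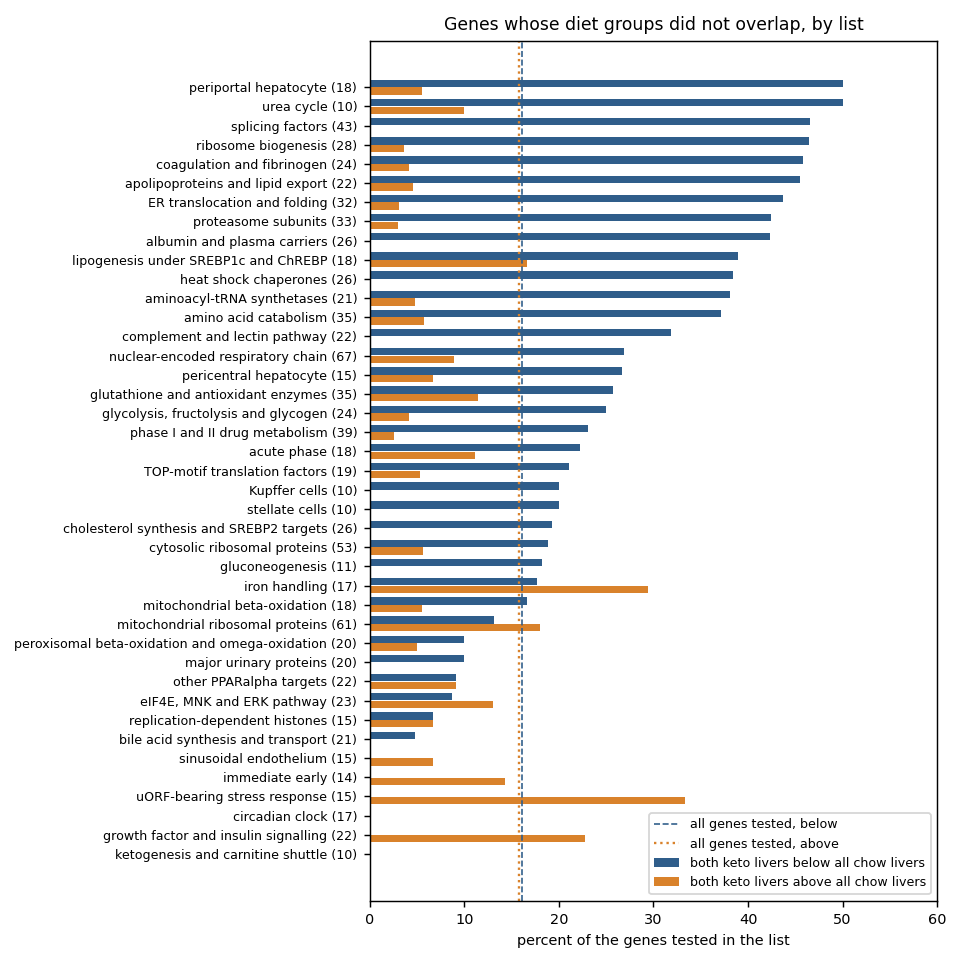
Percent of each list's tested genes with both keto livers below (blue) or above (orange) all chow livers, for lists of at least 10 genes; the dashed and dotted lines give 16.1% and 15.8% over all genes. Blue bars reach 50% for periportal and urea cycle genes, and orange bars exceed the dotted line clearly for stress-response, growth factor and iron genes.

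Genes of the endoplasmic reticulum, the entry to the secretory pathway, lay lower in keto. Of 32 tested genes of translocation and folding, 28 had a negative log2 value (median -0.53), and 14 lay below all chow livers and 1 above. Calr, the calcium-binding lectin chaperone calreticulin, stood at 1221, 744 and 868 CPM on chow and 406 and 368 on keto (-1.29 ± 0.40). Hspa5, the HSP70 chaperone BiP, stood at 1233, 819 and 599 against 487 and 495 CPM (-0.85 ± 0.42). Hsp90b1, the HSP90 of this compartment, stood at 2427, 1308 and 1964 against 1212 and 1083 CPM (-0.73 ± 0.43). Xbp1, the transcription factor of the unfolded protein response, stood at 121, 201 and 128 against 72.5 and 59.9 CPM (-1.18 ± 0.38). In all 4 genes both keto livers lay below the lowest chow liver. P4hb, the protein disulfide isomerase, also lay below, but only by a log2 difference of -0.16 ± 0.37. The list median was -0.99 in the heavy pool alone and -0.14 in the light pool alone, and it was -0.32 without chow 1.

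Some of these genes share the ER stress element, the letters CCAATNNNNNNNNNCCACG, which recruits NF-Y together with ATF6 or XBP1. It was searched on both strands in the 250 bases before each start. It was in 7 of the 27 genes of the list with an entry (25.9%), against 14 of the 6584 tested genes with an entry (0.213%) and 37 of 32851 promoter windows (0.113%). The windows below, in GRCm38.p6, show the element in capitals with its flanks, read in the direction of each gene, since these 7 genes allow the shared letters to be set beside the diet values.
Calr: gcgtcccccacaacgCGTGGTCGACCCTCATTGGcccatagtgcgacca
Canx: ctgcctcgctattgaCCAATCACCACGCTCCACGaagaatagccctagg
Creld2: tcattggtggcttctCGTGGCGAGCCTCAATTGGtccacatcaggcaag
Dnajc3: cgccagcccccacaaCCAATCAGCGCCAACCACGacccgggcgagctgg
Hsp90b1: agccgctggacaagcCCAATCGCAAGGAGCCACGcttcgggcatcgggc
Hspa5: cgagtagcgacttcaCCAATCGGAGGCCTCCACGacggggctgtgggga
Pdia6: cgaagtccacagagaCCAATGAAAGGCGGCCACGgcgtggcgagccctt
Calr lies at chr8:84847060-84847108 and Canx at chr11:50325785-50325833 on the minus strand. Creld2 lies at chr15:88819505-88819553, Dnajc3 at chr14:118937812-118937860, Hspa5 at chr2:34772010-34772058 and Pdia6 at chr12:17266476-17266524 on the plus strand, and Hsp90b1 at chr10:86705623-86705671 on the minus strand. In Calr and Creld2 the element reads on the opposite strand. Hsp90b1 holds a second match, on the opposite strand and 107 bases before the start, outside the window shown. The genes that share it had no single pattern: Calr, Hspa5, Hsp90b1 and the disulfide isomerase Pdia6 (-1.10 ± 0.46) lay below all chow livers, whereas the groups overlapped in Creld2 (-0.71 ± 0.59), in the lectin chaperone Canx (-0.04 ± 0.38) and in Dnajc3, an inhibitor of the kinase PERK (0.33 ± 0.34). Chow 1 was the highest liver for Calr, Hspa5, Hsp90b1, Pdia6, Canx, Creld2 and, within chow, Dnajc3.

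Splicing factors lay lower, with more genes below all chow livers by count than any other list. By share they did not lead, with 46.5% against 50% for urea cycle and for periportal genes. Of 43 tested, 38 were negative (median -0.62), 20 lay below all chow livers and 0 above. Besides Ik, Hnrnph2 and Luc7l3, these included Snrnp70, the U1 snRNP protein, at 365, 294 and 339.9 CPM on chow and 176 and 148 on keto (-1.04 ± 0.34). Hnrnpu, a nuclear scaffold protein, stood at 965, 1098 and 1169 against 476 and 611 CPM (-0.99 ± 0.38). Srsf2, an SR protein of exon recognition, stood at 300.4, 295 and 194 against 138 and 127 CPM (-0.99 ± 0.35). Their medians in the heavy and light pools alone were alike, at -0.62 and -0.71. The core subunits Prpf8, Sf3b1 and Sf3b2 overlapped between diets, at -0.20, -0.05 and -0.17. The list median was -0.39 without chow 3 and ran to -0.71 when other animals were left out.

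Ribosome biogenesis, tRNA charging, chaperone and proteasome genes lay lower as well. Of 28 ribosome biogenesis genes 24 were negative (median -0.59), 13 lay below all chow livers and 1 above. Rrp12, an export factor of pre-ribosomes, stood at 46.8, 51.1 and 38.3 CPM on chow and 11.1 and 13.4 on keto (-1.89 ± 0.49), and Pes1, of large-subunit processing, at 25.4, 20.8 and 55.6 against 6.14 and 1.74 CPM (-3.08 ± 0.78). The groups overlapped in the abundant members nucleolin (Ncl, -0.43 ± 0.38), Rrp1 (-0.18 ± 0.33) and Utp3 (0.02 ± 0.36). Of 21 cytosolic aminoacyl-tRNA synthetase genes 19 were negative (median -0.54) and 8 lay below all chow livers, among them the arginine enzyme Rars at 50.1, 39.7 and 41.2 against 18.6 and 9.73 CPM (-1.62 ± 0.51) and the bifunctional Eprs at 270.0, 254 and 355 against 154 and 183 CPM (-0.80 ± 0.34).

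Of 26 cytosolic and mitochondrial heat shock chaperone genes 21 were negative (median -0.71), with 10 below all chow livers and 0 above. Hsp90ab1, the constitutive HSP90, stood at 2677, 2869 and 4562 CPM on chow and 1795 and 1241 on keto (-1.15 ± 0.47). St13, a cochaperone of HSP70, stood at 194, 229 and 475 against 104 and 67.2 CPM (-1.81 ± 0.47), and Hspb1, the small heat shock protein HSP27, at 53.9, 31.3 and 76.6 against 13.6 and 14.1 CPM (-1.96 ± 0.53). Chow 3 was the highest liver for all 3. Of 33 proteasome genes 30 were negative (median -0.48), 14 lay below all chow livers and 1 above. Psmd2, a regulatory particle subunit, stood at 129.6, 159.7 and 291 against 80 and 76 CPM (-1.31 ± 0.42), and Psma2, a core particle subunit, at 19.7, 26.4 and 58.5 against 6.36 and 5.77 CPM (-2.51 ± 0.68). Without chow 1 the count of proteasome genes below was 27, when 23.7% of all genes lay below, and without chow 3 the medians were -0.35 for chaperones and -0.28 for the proteasome. Without keto 2 they were -0.46 for chaperones and -0.82 for tRNA synthetases.

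Cytosolic ribosomal protein genes had the lowest median of the larger lists, and chow 3 set most of it. Of 53 tested 47 were negative (median -1.12), yet 10 lay below all chow livers and 3 above, a share below of 18.9%. Rpl19, for example, stood at 89.2, 144 and 528 CPM on chow and 59.5 and 64.2 on keto (-2.04 ± 0.76). Together these genes held 0.255%, 0.292% and 0.843% of the summed mRNA in chow 1, 2 and 3 and 0.291% and 0.302% in keto 1 and 2, so the keto livers lay near chow 1 and 2 and chow 3 stood apart. Without chow 3 the list median was -0.15. Chow 3 is also the chow animal with the separate aligner in its header, and the part of processing in this result was not tested. The most abundant members did not follow the median: Rpsa (-0.08 ± 0.37), Rplp1 (0.39 ± 0.33) and Rpl8 (-0.31 ± 0.37). Many ribosomal protein genes have processed pseudogenes, so their counts depend on how reads that align to several places were treated.

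Translation factors with a terminal oligopyrimidine motif, which share the translational control of ribosomal protein mRNAs, had a median of -0.81 over 19 genes, and of -0.14 without chow 3. Eef1d, an exchange factor subunit of elongation, stood at 71.8, 84.7 and 109 CPM on chow and 36.4 and 24.8 on keto (-1.53 ± 0.42), whereas the abundant elongation factor Eef2 stood at 563, 1257 and 1269 against 1029 and 832 CPM (-0.15 ± 0.45). Of 67 nuclear-encoded respiratory chain genes 49 were negative (median -0.39), 18 lay below all chow livers and 6 above. Atp5pb, of the peripheral stalk of ATP synthase, stood at 101, 105 and 284 against 60.1 and 49 CPM (-1.58 ± 0.51), and Ndufv1, a core subunit of complex I, at 242, 299 and 288 against 159 and 159 CPM (-0.80 ± 0.33). The median of this list was -0.14 without chow 3. Of 61 mitochondrial ribosomal protein genes 29 were positive and 32 negative, and their median of -0.09 turned to 0.02 without the TMM step and to 0.03 without chow 1.

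Plasma protein genes, the main output of the hepatocyte, lay lower in keto in the sum. Of 26 albumin and carrier genes 25 were negative (median -0.43), 11 lay below all chow livers and 0 above. Albumin itself overlapped between diets (-0.30 ± 0.51). Ttr, which carries thyroid hormone, stood at 3384, 2419 and 1898 CPM on chow and 929 and 1557 on keto (-1.05 ± 0.47), and Serpina6, which carries glucocorticoid, with a log2 difference of -1.37 ± 0.42 and both keto livers below all chow livers. Of 24 coagulation genes 22 were negative (median -0.44), 11 lay below and 1 above. The fibrinogen chains stood out by size. Fgb stood at 6951, 3093 and 3805 against 1042 and 1363 CPM (-1.94 ± 0.52), Fgg at 2958, 1099 and 1230.1 against 658 and 601 CPM (-1.48 ± 0.52) and Fga at 10215, 3993 and 3369 against 2593 and 2984 CPM (-1.07 ± 0.57). All 3 chains were highest in chow 1, and both keto livers lay below the lowest chow liver in each.

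Of 22 apolipoprotein and lipid export genes 18 were negative (median -0.45), 10 lay below all chow livers and 1 above. Apoe, the apolipoprotein of remnant clearance and among the most abundant mRNAs here, stood at 61263, 72880.1 and 60806 CPM on chow and 28555 and 33027 on keto (-1.08 ± 0.53). Apoh, which binds phospholipid, stood at 840.0, 1395 and 901 against 421 and 399 CPM (-1.35 ± 0.41). Apob, the structural protein of VLDL, lay on the other side, at 4831, 7818 and 4266 against 9396 and 8679 CPM (0.68 ± 0.47). The list held 9.24%, 11.2% and 10.1% of the summed mRNA in chow and 7.09% and 7.06% in keto. Complement genes (22 tested, 19 negative, median -0.43) and acute phase genes (18 tested, 15 negative, median -0.55) lay lower too. Mbl1, a mannose-binding lectin, stood at 568, 290.1 and 401 against 144 and 193 CPM (-1.32 ± 0.40), and Crp, a pentraxin, at 357, 331 and 185 against 117 and 151 CPM (-1.12 ± 0.39), while the most abundant complement gene C3 stood at 9777, 8469.9 and 8924 against 8368 and 8585 CPM (-0.10 ± 0.45).

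The medians of these lists were lower in the heavy pool alone than in the light. They were -0.99 in heavy and 0.00 in light for albumin and carriers, -0.94 and -0.22 for coagulation, -0.87 and -0.11 for apolipoproteins, and -0.71 and -0.05 for complement. The heavy pool is also where mitochondrial rRNA was 47.3% and 74.2% on keto against at most 16.7% on chow, and its part in these medians was not tested. The difference between the pools was not tested. Without chow 1 the summed medians were -0.19 for complement and -0.32 for acute phase genes. The albumin and carrier median was -0.26 without keto 1, and the apolipoprotein median -0.76 without keto 2.

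Iron genes lay on both sides. Hamp2, the paralog of Hamp, stood at 18.6, 35.4 and 19.2 CPM on chow and 2.85 and 13.9 on keto (-1.53 ± 0.77), and reads may be shared between these near-identical genes. Tfr2, an iron sensor of the hepatocyte surface, stood at 463, 517 and 673 against 353 and 335 CPM (-0.68 ± 0.36). Of other genes that act upstream of Hamp, 3 lay above all chow livers. The haemochromatosis gene Hfe had a log2 difference of 0.73 ± 0.39. Hjv, the BMP coreceptor hemojuvelin, stood at 41.5, 59 and 29.6 against 72.8 and 111 CPM (1.08 ± 0.42), and the ligand gene Bmp2 at 2.58, 8.07 and 6.37 against 17.3 and 23.2 CPM (1.83 ± 0.78). The iron store genes lay higher as well, with Ftl1, ferritin light chain, at 226, 201 and 177 against 258 and 650.0 CPM (1.17 ± 0.41) and Fth1, ferritin heavy chain, at 369.8, 312 and 243 against 425 and 529 CPM (0.63 ± 0.35). Over the 17 tested iron genes 5 lay above all chow livers (29.4%) and 3 below. Their median of -0.10 turned sign without the TMM step, with unscaled raw sums and without chow 1 or keto 1.

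Nitrogen metabolism lay lower. Of 10 urea cycle genes 8 were negative (median -0.65), 5 lay below all chow livers and 1 above. Beside Otc these were Ass1, argininosuccinate synthase, at 1004, 1207 and 3344 CPM on chow and 478 and 644 on keto (-1.72 ± 0.58), Arg1, arginase, at 2072, 3641 and 3558 against 1415 and 1803 CPM (-0.94 ± 0.46), and Cps1, which makes carbamoyl phosphate, at 6741, 13019.8 and 11953 against 5548 and 5595 CPM (-0.92 ± 0.50). Both keto livers lay below every chow liver for these genes, and chow 1 was the chow liver nearest to them for Ass1, Arg1 and Cps1. Of 35 amino acid catabolism genes 27 were negative (median -0.37), 13 lay below and 2 above. Tdo2, which opens the tryptophan ring, stood at 738, 2177 and 2107 against 455 and 623 CPM (-1.63 ± 0.53) and Cbs, of transsulfuration, at 932, 392 and 471 against 180.5 and 254 CPM (-1.46 ± 0.46). Tat, tyrosine aminotransferase, overlapped between diets (-0.28 ± 0.43). The urea cycle median was -0.43 without keto 1, and that of amino acid catabolism -0.60 without keto 2.

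Most markers of both hepatocyte zones lay lower in the sum. Of 18 periportal genes, several of which are also urea cycle genes, 17 were negative (median -0.90), 9 lay below all chow livers and 1 above. Etnppl, an ethanolamine phosphate lyase, stood at 249, 213 and 262 CPM on chow and 121 and 94.9 on keto (-1.16 ± 0.34). Of 15 pericentral genes 12 were negative (median -0.55), 4 lay below and 1 above. Csad, of taurine synthesis, was among those below, at 691, 346 and 453 against 218 and 183 CPM (-1.31 ± 0.40). Glul overlapped between diets (-0.05 ± 0.41), and Slc1a2 lay above all chow livers (0.70 ± 0.39). In the heavy pool alone the pericentral median was -1.18 and in the light pool alone 0.05, with 7 genes lower in both. The pericentral median was -0.27 without keto 1 and the periportal -0.58 without chow 1. In bulk liver, fewer cells of a zone and less RNA per cell cannot be told apart.

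Detoxification genes were mixed at the level of single enzymes. Of 39 drug metabolism genes 33 were negative (median -0.51), 9 lay below all chow livers and 1 above. Without chow 2 the median was -0.22, with 25 negative. The sulfotransferase Sult1a1 stood at 203, 478 and 703 CPM on chow and 153 and 152 on keto (-1.60 ± 0.50). Of 35 glutathione and antioxidant genes 27 were negative (median -0.54), 9 lay below and 4 above. The glutathione transferases Gsta3 (1151, 770.1 and 1065 against 379.8 and 373 CPM, -1.40 ± 0.39) and Mgst1 (1324, 1494 and 2614 against 749.9 and 681 CPM, -1.34 ± 0.45) lay lower. The peroxide enzyme catalase, Cat, lay higher, at 1791, 2378 and 1960.1 against 3702 and 4547 CPM (1.01 ± 0.41). Selenop, the plasma selenium carrier, stood at 2561, 3617 and 2900.5 against 7570.3 and 6367 CPM (1.20 ± 0.43), and Gpx1, glutathione peroxidase, at 1296, 1580.3 and 1226 against 1595 and 2056 CPM (0.42 ± 0.39). In all 3 both keto livers lay above the highest chow liver.

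The genes best known for answering a ketogenic diet did not separate by diet, and chow 1 differed from the other chow livers in them. Cpt1a, which admits fatty acids to mitochondria, stood at 315, 1439 and 1613 CPM in chow 1, 2 and 3 and at 1683 and 1224 in keto (0.37 ± 0.61). The ω-hydroxylase gene Cyp4a14, a PPARα target, stood at 111, 6959 and 5661 against 2190.2 and 2151 CPM (-0.97 ± 1.39), and Angptl4, an inhibitor of lipoprotein lipase, at 29.3, 398 and 352 against 299 and 382 CPM (0.39 ± 0.95). In each of these genes chow 1 was the lowest of all 5 livers by a wide margin, and the cause was not tested. The keto livers lay between chow 1 and the other chow livers for Cyp4a14, and around the levels of chow 2 and 3 for Cpt1a and Angptl4. Fgf21, the fasting hormone, had 0 CPM in chow 1, 10.2 and 35.5 in chow 2 and 3, and 15.3 and 27.2 in keto.

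The lists repeated that order. Relative to the mean over the 3 chow livers, the median member of the ketogenesis list lay at log2 -1.21 in chow 1, 0.56 and 0.72 in chow 2 and 3, and 0.39 and 0.34 in keto. Peroxisomal and ω-oxidation genes lay at -1.31, 0.60 and 0.73 against 0.25 and 0.21. Over all chow livers, ketogenesis had a positive median log2 (0.27, 6 of 10 genes positive, 0 below and 0 above) and other PPARα targets one of 0.24 (12 of 22). Mitochondrial β-oxidation (-0.47, 16 of 18 negative), peroxisomal oxidation (-0.23, 14 of 20) and gluconeogenesis (-0.59, 10 of 11) had negative medians. Leaving out chow 3 moved the β-oxidation median to -0.05. The fit with the replicate number as a block, which also sets chow 3 aside because no keto animal has its number, gave 0.16. Without chow 1 the medians were -0.05 for ketogenesis, -0.10 for PPARα targets, -0.70 for β-oxidation, -0.56 for peroxisomal oxidation and -0.86 for gluconeogenesis. In that setting 14 of 18 β-oxidation, 12 of 20 peroxisomal and 8 of 11 gluconeogenesis genes lay below both remaining chow livers, against 3, 2 and 2 with it, while over all genes the share below went from 16.1% to 23.7%. The peroxisomal median was 0.12 without chow 2, and that of PPARα targets -0.02 without keto 1.

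Genes of fatty acid synthesis were high in chow 1 by contrast. Srebf1, which encodes SREBP-1, stood at 418, 60.1 and 48.7 CPM on chow and 42.4 and 70.4 on keto (-1.64 ± 1.06). Fasn, fatty acid synthase, stood at 1261, 375 and 361 against 244 and 289.9 CPM (-1.32 ± 0.58), Acly, ATP citrate lyase, at 774, 191 and 222 against 133 and 105 CPM (-1.73 ± 0.63) and Thrsp, a lipogenic regulator, at 169.8, 119 and 91.5 against 56.5 and 52.3 CPM (-1.22 ± 0.39). For these last 3 genes both keto livers lay below chow 2 and 3 as well as chow 1. Scd1, stearoyl-CoA desaturase, stood at 5368, 944 and 624 against 1601 and 3202 CPM, and its groups overlapped.

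The elongases lay on the other side from the synthase. Beside Elovl6, Elovl5, which elongates polyunsaturated fatty acids, stood at 301, 359 and 384 CPM on chow and 749.8 and 836 on keto (1.19 ± 0.34). Chow 1 was not the outlier for either elongase. Of 18 lipogenesis genes 12 were negative (median -0.57, and -0.36 without chow 1), 7 lay below all chow livers and 3 above. Of 26 cholesterol synthesis genes 21 were negative (median -0.57), with 5 below and 0 above, but the median was -0.04 without chow 1, in which they lay highest. Glycolysis and glycogen genes were negative in 21 of 24 (median -0.78, and -0.33 without chow 3), with Gapdh at 59.1, 75.8 and 45.4 against 27.4 and 30.3 CPM (-1.06 ± 0.43). Pdk2, a kinase that shuts off pyruvate dehydrogenase, lay on the other side at 24.5, 57.5 and 43.2 against 83.2 and 114 CPM (1.24 ± 0.43).

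**Figure D4:**
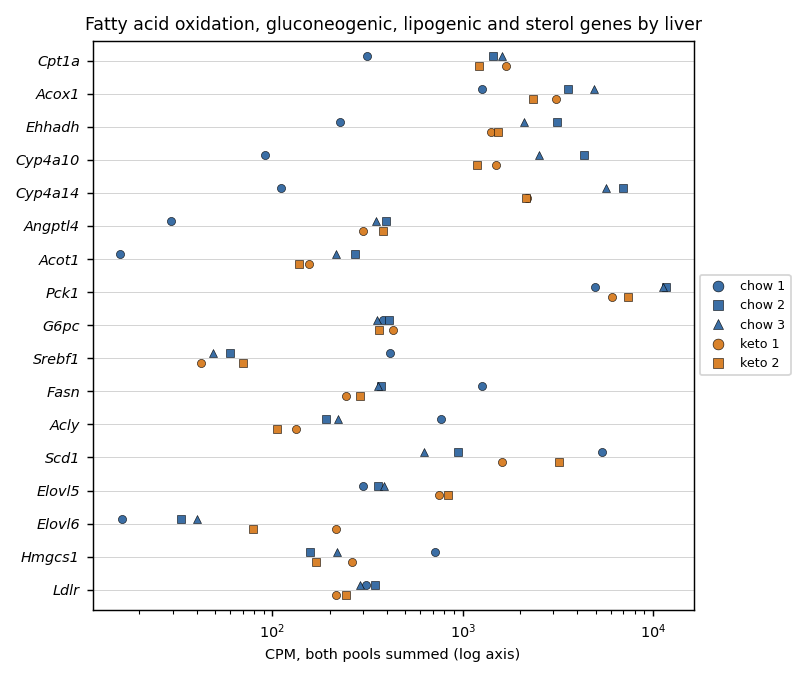
Summed level per liver in CPM (log axis) of genes of fatty acid oxidation, gluconeogenesis, fatty acid synthesis and sterol synthesis; blue marks are chow livers, orange marks keto livers, and shapes give the animal number. Chow 1 lies alone at the low end for Cyp4a14 (111 CPM) and Cpt1a (315 CPM) and alone at the high end for Srebf1 (418 CPM) and Fasn (1261 CPM).

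A few regulatory lists had positive medians. The list for upstream open reading frames mixes stress-response, polyamine and other genes. Of 15 tested, 10 were positive (median 0.39, and 0.58 without chow 2), 5 lay above all chow livers and 0 below. Atf5, a transcription factor of the stress response, stood at 124 to 337 CPM on chow and 454 and 713 on keto (1.38 ± 0.44). Azin1, an antizyme inhibitor of polyamine control, stood at 28.4, 44.5 and 65.3 against 99.9 and 98.6 CPM (1.11 ± 0.42). Atf4, the best known member, overlapped at 171, 61.6 and 46.5 against 44.6 and 124 CPM (-0.14 ± 0.63). The stress-response genes Ddit3 (-0.63 ± 0.73), Trib3 (-0.21 ± 1.09) and Ppp1r15a (0.13 ± 0.81) overlapped too. Of 14 immediate early genes 11 were positive (median 0.32, and 0.14 without chow 1). The 2 that lay above all chow livers made up 14.3%, under the 15.8% of all genes. They were the AP-1 gene Jund at 111, 159 and 132 against 322 and 229.6 CPM (1.04 ± 0.34) and Klf6, a zinc finger factor, at 1.72, 4.61 and 8.6 against 11.8 and 42.4 CPM (2.43 ± 0.84).

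Of 22 growth factor and insulin signalling genes 13 were positive (median 0.13, -0.08 without keto 1 and 0.27 without keto 2), 5 lay above all chow livers (22.7%) and 0 below. Ghr, the growth hormone receptor, stood at 193, 186 and 114 CPM on chow and 315 and 327 on keto (0.96 ± 0.35). Its target gene Igf1 stood at 390.4, 356 and 368 against 569 and 635 CPM (0.70 ± 0.33), with 3 nearly equal chow livers. Igfbp4, which binds IGF, stood at 985, 1861 and 1264 against 2394 and 2158 CPM (0.73 ± 0.42), and the insulin receptor gene Insr at 184, 351 and 250.4 against 397 and 374 CPM (0.56 ± 0.36). The insulin receptor substrate gene Irs1 lay at -0.75 ± 0.44 with overlapping groups.

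The S209A allele of the series concerns eIF4E. In a list of eIF4E, its partners and genes of the ERK, p38 and mTOR pathways, 14 of 23 genes were positive. The median was 0.13, -0.12 without keto 1 and 0.29 without keto 2. In this list 3 genes lay above all chow livers (13.0%) and 2 below (8.70%), under the 15.8% and 16.1% of all genes. Eif4e itself stood at 12.9, 0.988 and 23.9 CPM on chow and 17.5 and 13.1 on keto (0.28 ± 0.95). Eif4g2, a scaffold that works without eIF4E, stood at 110.1, 183 and 178 against 307 and 239 CPM (0.79 ± 0.35), and Eif4g3, a scaffold of the cap complex, at 185, 148 and 163 against 112 and 83.8 CPM (-0.76 ± 0.34). Mknk2, an eIF4E kinase gene, stood at 25.2, 116 and 125 against 236 and 127 CPM (1.03 ± 0.61).

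Markers of other cell types were at low levels and mostly overlapped. Of 10 Kupffer cell markers 5 were positive and 5 negative, with C1qb, a complement C1q chain, at 18.1, 20.9 and 30.2 CPM on chow and 2.96 and 1.74 on keto (-3.26 ± 0.78), while the defining marker Clec4f stood at 161, 62.6 and 167 against 119 and 154 CPM. The Kupffer list held 0.0309% to 0.0716% of the summed mRNA in chow and 0.0525% and 0.0581% in keto. Of 15 sinusoidal endothelium markers 4 were positive (0.075% to 0.174% in chow, 0.132% and 0.153% in keto), and of 10 stellate cell markers 3 were positive (0.0454% to 0.0571% in chow, 0.0396% and 0.0523% in keto). All 3 tested cholangiocyte markers were negative, with a total of 0.0045% to 0.0128% in chow and 0.00219% and 0.00354% in keto, and Cftr had 0 counts.

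Hemoglobin mRNA lay higher in keto. Hba-a1 stood at 13.4, 24.1 and 4.91 CPM on chow and 44.6 and 119 on keto (2.54 ± 0.65), Hba-a2 at 23.1, 40.9 and 8.81 against 94.2 and 181 CPM (2.50 ± 0.57), Hbb-bs at 19.9, 16.1 and 5.64 against 27.2 and 103 CPM (2.23 ± 0.66) and Hbb-b1 at 32.6, 38.7 and 11.7 against 57.3 and 139 CPM (1.82 ± 0.55). Keto 2 was highest and chow 3 lowest for all 4. These 4 were the erythroid genes above all chow livers, out of 5 tested and 10 listed. The remaining tested gene, Alas2, which is not a globin, did not follow them. It stood at 67.2, 30.6 and 22.2 CPM on chow and 22.8 and 42.6 on keto (-0.29 ± 0.56), with overlapping groups. The red cell membrane gene Slc4a1 had 0 counts. The list held 0.00532% to 0.0156% of the summed mRNA in chow and 0.0254% and 0.0618% in keto, and the globin copies share reads. Without keto 2 the list median was 1.05. The part of blood in the other results was not tested. No lymphocyte, neutrophil or exocrine pancreas gene reached the minimum (0 of 11, 9 and 13 listed), and the adipocyte genes Adipoq, Lep, Plin1 and Retn had 0 counts.

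The pools had opposite signs for some genes. Mapk3, which encodes ERK1, stood at 1741, 1749 and 229 CPM on chow and 3510.3 and 486 on keto in the sum (0.69 ± 1.07), with 3.21 in the heavy pool and -1.77 in the light pool. Mknk1, an ERK-activated eIF4E kinase gene, showed 2.16 and -1.68 in the same order. The major urinary protein genes, a cluster of near-identical copies, had a median of -1.87 in heavy and 1.39 in light over 20 tested members, and their summed median of -0.07 turned to 0.11 without the TMM step and ran from -0.71 (without keto 2) to 0.82 (without chow 2). Replication-dependent histone genes had -1.33 in heavy and 0.34 in light over 15 tested, with a summed median from -1.09 (without keto 2) to -0.02 (without keto 1). Over all 8151 genes, 61% had the same sign in both pools. Each pool alone gave 0 edgeR calls, with 847 genes (10.4%) in heavy and 592 (7.26%) in light at an unadjusted p under 0.05.

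The pools also differed by gene length. In the fifth of the tested genes with the shortest genomic span the median log2 was -0.33 in heavy and 0.03 in light, and in the fifth with the longest span it was 0.23 in heavy and -0.17 in light. In the sum these medians were -0.12 and -0.00.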

How the data were processed

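RNA from heavy and light polysome pools of 5 wild-type mouse livers was measured by total RNA sequencing (10 of 12 libraries). The authors deposited 1 table per library, holding unnormalized counts by Entrez gene ID. Tools named in the submitters' processing notes are HISAT2, StringTie and Trimmomatic, with the build mm10; per the file headers, alignments differed between animals. The counting tool, its strand setting and its treatment of multiple alignments are not stated in the labels or headers, so overlapping, antisense and copied genes are uncertain. Of 27179 IDs, 25275 were named through RefSeq GRCm38.p6 and 1904 stayed out. No column was left unused (0).

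Each library was scaled to the mean total of 889660 nuclear protein-coding counts, and pools were added per animal. These scaled sums, not the deposited counts themselves, entered edgeR 4.0.16 in R 4.3.3 (TMM, quasi-likelihood, two-sided, Benjamini-Hochberg over 8151 genes, threshold 0.05). Standard errors are the absolute log2 value over the square root of F. DESeq2 1.42.0, limma 3.58.1, other scalings and filters and leaving out each animal were alternatives. The fit was tested on simulated data with a dispersion of 0.05. The common dispersion of these data was 0.193, so the simulation does not show how the fit behaves here.

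Members and lists were chosen with earlier results of these data known. Leading genes were the 15 per direction with the smallest unadjusted p among genes at or above the median level (37.1 CPM) whose groups did not overlap, without predicted genes. Further genes were 30 fixed by name and, per list, the 3 most abundant and the 2 of smallest p. Other members named were chosen after their values were seen. Promoters came from the RefSeq table (6584 tested genes had one). Some listed genes are not reported here by name.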

Additional observations from a re-analysis of the deposited data

How the results depend on the processing

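The count of edgeR calls was 0 in the main setting and under the other scalings, limma-trend, limma-voom, the higher count minimum, the title wording (chow 3 is titled fed) as a batch and every left-out animal. It was 40 in DESeq2 (which gave no adjusted p for 2214 genes), 32 with no filter on low counts (13836 genes tested) and 7 with the replicate block. The cause was not tested. Chow 3 is the only wild-type animal titled fed and the only one with its replicate number. The title batch and the replicate block therefore both take chow 3 out of the diet difference, and neither is a check apart from leaving chow 3 out. DESeq2 called 27 of the 30 leading genes, the unfiltered fit 18 and the block 6, among them Hamp, Ik, Bcap31, Hnrnph2, Rpl7 and Elovl6. The count at an unadjusted p under 0.05 was 934 and ran from 458 (without keto 2) to 1091 (without chow 1) when an animal was left out, which also leaves fewer samples; where keto had 1 animal it was assumed to vary like chow. Replicate numbers are shared by 2 pairs, whose deviations correlated at -0.0999 and 0.0405. With 2 keto animals, their deviations from the keto mean mirror each other. The check therefore cannot decide whether the numbers pair the animals. Of 308 named genes, 63 changed sign under some alternative (198 of 6126 values) and 0 of the 30 leading genes did. The leading genes were chosen for non-overlapping groups and small p, which favours a stable sign, so their count does not measure robustness. Of 840 list medians under alternatives, 48 moved by more than the spread between chow animals. That spread rests on 3 livers and was wide for some lists, at 1.07 for ketogenesis and 1.92 for major urinary proteins. For such lists the rule misses large moves and changes of sign, so the count does not show that the medians were stable. Keto 2, with 906774 counts, limits the precision of low genes. Lars2 was left out as an alternative chosen after seeing the data.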
